A study of Caenorhabditis elegans with 2 samples.

Results

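The chromosomal passenger, Aurora and Polo genes are 8 genes chosen by name from the Ensembl WBcel235 annotation, out of 19973 protein-coding genes on the nuclear chromosomes. They are air-2, icp-1, bir-1 and csc-1, which encode the chromosomal passenger complex, air-1 and tpxl-1, which encode Aurora A and its activator, and the Polo kinase genes plk-1 and plk-2. The data are from chromatin immunoprecipitation and sequencing (ChIP-seq) of tagged LIN-54 in whole Caenorhabditis elegans. The 2 biological replicates form a single group with 1 library each and no second condition, and the labels do not say more of how separate their cultures were. Both replicates are of strain OP743, genotype unc-119(tm4063), with wgIs743, an inserted fosmid transgene that carries lin-54::TY1::EGFP::3xFLAG and an unc-119(+) marker. Per the labels, the animals were young adults of pooled sex, 65 hours of age, synchronised by starving hatched L1 larvae after bleaching, and the precipitation used an antibody to GFP. The tagged protein comes from an added fosmid copy in 1 transgenic line, and the labels give no change to the endogenous lin-54 locus. Whole animals were used, so a signal cannot be assigned to the germ line or to any somatic tissue.

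The chromosomal passenger complex is a mobile kinase complex of dividing cells. The Aurora B kinase, AIR-2 in the worm, is held by the INCENP scaffold ICP-1 and targeted by the Survivin-like BIR-1 and the Borealin-like CSC-1 to chromosomes and later to the central spindle, where it acts in chromosome segregation, release of meiotic cohesion and cytokinesis. Aurora A, AIR-1, works at centrosomes and on spindle microtubules and is activated there by TPXL-1. PLK-1 drives mitotic entry, centrosome maturation and nuclear envelope breakdown, and PLK-2 is known for its part in the pairing and synapsis of meiotic chromosomes. LIN-54 is a DNA-binding subunit of DREAM, a complex with E2F and Rb-like subunits known for repressing cell cycle genes. Its own target in DNA is a short element named CHR, after the homology region of cell cycle genes, while the E2F subunits of DREAM bind E2F sites.

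LIN-54 peaks lay at the promoters of 7 of the 8 genes, and air-1 was the member without one. A promoter peak here is a peak of the authors' list that passed the irreproducible discovery rate (IDR) procedure, with its summit between 1000 bp upstream and 300 bp downstream of a protein-coding 5′ end. By the same rule, 14.3% of all protein-coding genes had a promoter peak. The members were chosen with earlier results of these data known, so no test of the list was made. The relaxed lists of 30000 regions are named by the authors as peaks and background. When any such region was counted, all 8 genes had one in the window in the pooled list and in that of each replicate. The shares of protein-coding genes were 38%, 40.1% and 39.9%. The IDR peaks are the strongest part of the pooled list, so in that list air-1 alone could add to the 7 genes. Its strongest pooled window region ranked 20258, so the count of 8 is no separate sign of binding. All 4 passenger genes, both Polo genes and tpxl-1 carried an IDR peak, with signals from 133 at bir-1 and icp-1 to 434 at plk-1. The signal is the authors' value for each region, which ranks regions within a list. The read depth behind it is unknown, so no interval is given.

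The sequence under 3 of these summits and in the gap upstream of air-1 is shown because the passenger promoters held E2F words and the Polo and Aurora A promoters did not, and because air-1 is the member without an IDR peak in its window. Each line is the WBcel235 plus strand, which is the strand of these genes, 5′ to 3′. For the genes with an IDR peak it reaches 60 bp to each side of the summit. Capitals mark every E2F word (TTCCCGC or TTCGCGC or TTGCCGC or TTGGCGC) and every CHR word (TTTGAA or TTCGAA) on either strand. The stretches are chrV:11644278-11644398 for bir-1, chrII:13596696-13596816 for csc-1, chrIII:8101093-8101213 for plk-1 and chrV:8221317-8221487 for air-1, and none overlaps an annotated exon.
bir-1: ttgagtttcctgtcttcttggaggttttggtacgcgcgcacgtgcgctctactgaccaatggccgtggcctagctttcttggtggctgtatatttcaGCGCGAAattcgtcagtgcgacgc
csc-1: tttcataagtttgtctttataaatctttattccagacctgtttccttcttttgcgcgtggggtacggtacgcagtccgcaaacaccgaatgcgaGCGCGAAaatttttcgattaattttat
plk-1: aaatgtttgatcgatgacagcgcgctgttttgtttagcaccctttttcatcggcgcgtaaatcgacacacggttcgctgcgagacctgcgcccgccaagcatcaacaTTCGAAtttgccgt
air-1: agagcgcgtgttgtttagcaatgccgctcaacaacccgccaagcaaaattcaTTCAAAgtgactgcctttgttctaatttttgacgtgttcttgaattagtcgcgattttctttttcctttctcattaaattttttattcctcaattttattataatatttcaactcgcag
The bir-1 and csc-1 stretches each hold an E2F word on the strand opposite to the gene, and the plk-1 and air-1 stretches each hold a CHR word and no E2F word.

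The kinase gene of the passenger complex, air-2 (chromosome I, 5937195 to 5938881, plus strand), had a narrow peak of 182 bp (5937030 to 5937211). Its signal was 273 in the IDR list, 145 in replicate 1 and 124 in replicate 2, which ranked it 976, 905 and 1156. The rank was thus alike in both replicates and placed the peak above 65.5% of the 2281 promoter IDR peaks. The summit was 71 bp upstream of the nearest of the 2 annotated 5′ ends of air-2, between air-2 and the divergent gene B0207.6, whose 5′ end was 167 bp away. The peak therefore counts for both genes.

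At icp-1, the scaffold gene (chromosome I, 2304513 to 2306790, minus strand), the peak (2306715 to 2307050) had a signal of 133 in the IDR list, 69.6 in replicate 1 and 78.1 in replicate 2. It ranked 2356, 2386 and 2103, in the weaker part of the promoter peaks, of which 27.7% were weaker. Its summit was 93 bp upstream of the 5′ end and also lay in the window of the divergent gene Y39G10AR.9, at 384 bp from its 5′ end. The next gene on the same strand, tpxl-1, began just past the icp-1 end and had a peak of its own.

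The bir-1 gene of the Survivin-like subunit (chromosome V, 11644477 to 11645370, plus strand) had a peak (11644170 to 11644505) with a signal of 133 in the IDR list, 47.5 in replicate 1 and 93.2 in replicate 2. The replicates differed here more than at any other member. In replicate 1 the region ranked 4125, outside the strongest 3449 regions, and in replicate 2 it ranked 1676. The summit lay 139 bp upstream of the nearest 5′ end, in no other protein-coding window. The gene skp-1 follows bir-1 on the same strand after 110 bp and had no promoter peak.

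The csc-1 gene of the Borealin-like subunit (chromosome II, 13596955 to 13597947, plus strand) had the strongest peak of the passenger genes (13596679 to 13596875). Its signal was 344 in the IDR list, 146 in replicate 1 and 190 in replicate 2, with ranks of 702, 894 and 615. Of the promoter IDR peaks, 73.7% were weaker. The summit was nearly midway between divergent 5′ ends, 199 bp from that of csc-1 and 201 bp from that of fbxc-23, an F-box gene, so the position of this peak does not tell these genes apart.

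**Figure D1:**
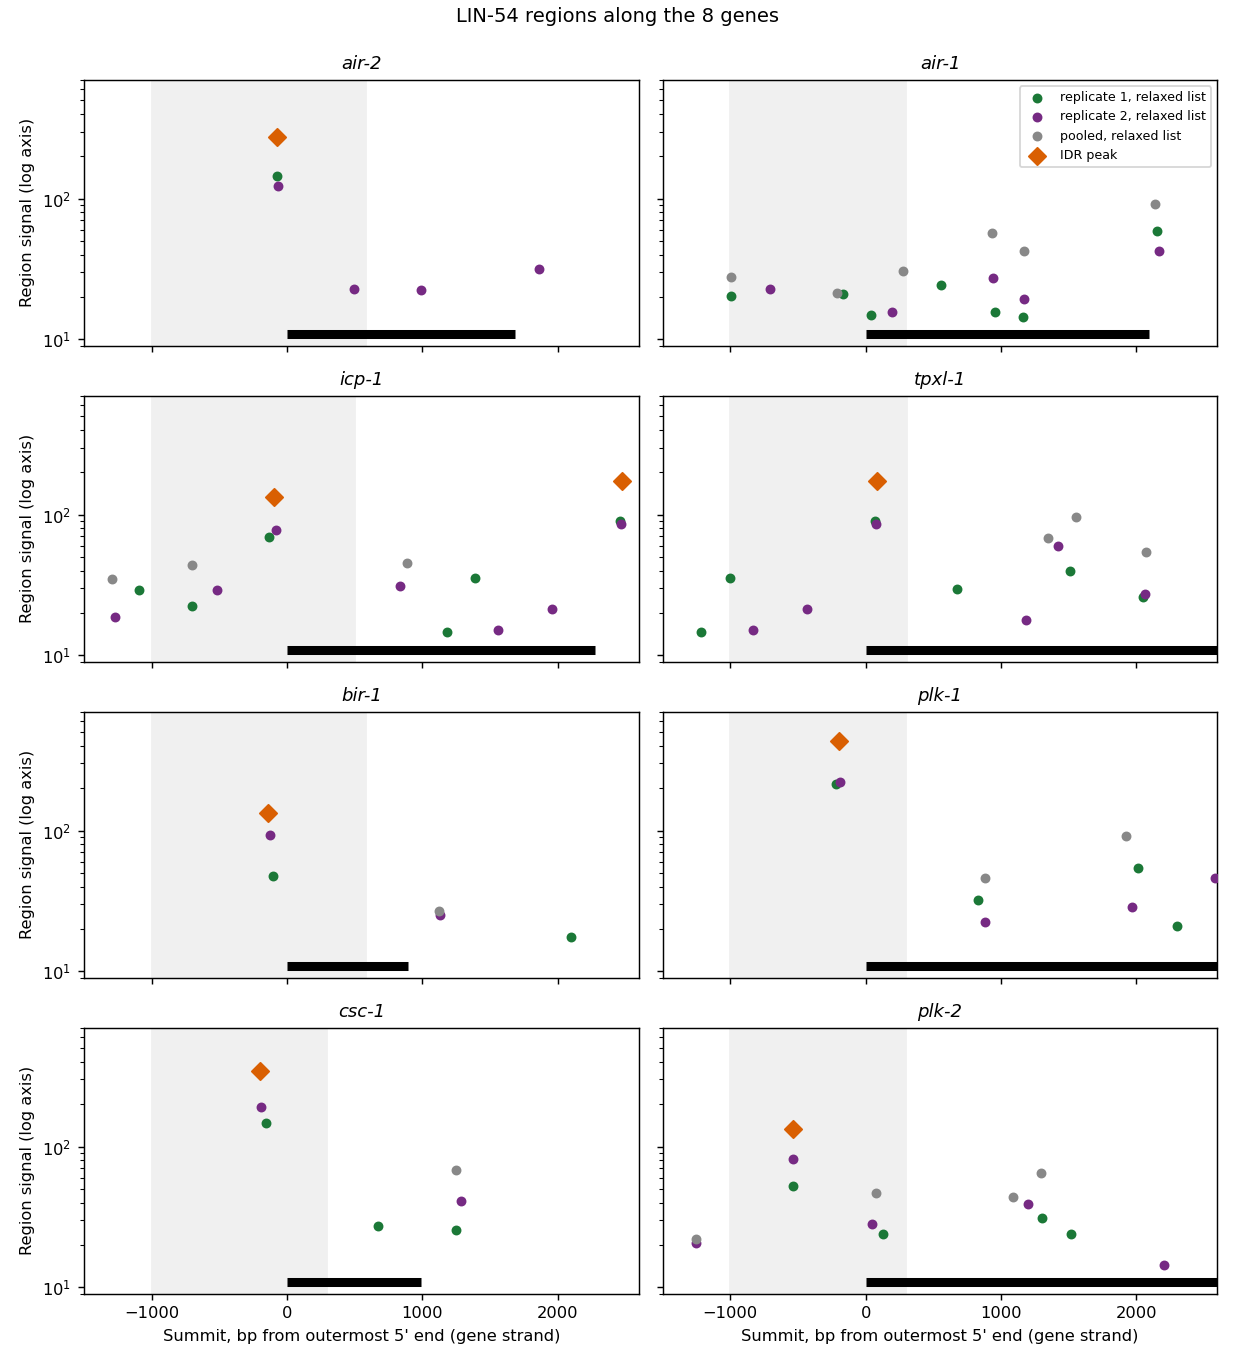
Signal of each LIN-54 region (log axis) against the position of its summit in bp from the outermost 5′ end, along the strand of each gene, with the gene body as a black bar and the promoter window shaded. Green and purple points are regions of replicates 1 and 2, grey points are pooled regions (hidden under the diamonds where they are IDR peaks), and orange diamonds are IDR peaks, which are present in the window of every gene shown except air-1. IDR peaks farther downstream of plk-1 and plk-2 lie outside the plotted range.

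The Aurora genes differed from each other. At air-1 (chromosome V, 8221488 to 8223582, plus strand) the strongest pooled region in the window had a signal of 30.6 and ranked 20258 of 30000, against 273 for the IDR peak of air-2. The strongest window region of replicate 1 had a signal of 20.9 (rank 16768) at -165 bp, and that of replicate 2 had a signal of 22.7 (rank 14374) at -707 bp, negative being upstream. The strongest window regions of the 3 lists thus had their summits at different places, the pooled one at 277 bp. That pooled region overlapped a weaker replicate 2 region with its summit at 195 bp. Weaker regions of the pooled list and replicate 1 had summits at -992 and -991 bp. The lowest signal in the IDR list was 98.2, so air-1 was not near it, and no alternative setting gave air-1 a promoter peak. The gap of 171 bp between air-1 and the divergent gene cogc-6, printed above, held no IDR summit, and cogc-6, which encodes a subunit of a Golgi tethering complex, had none in its window either.

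At tpxl-1, the gene of the Aurora A activator (chromosome I, 2297392 to 2304397, minus strand), the peak (2304148 to 2304483) had a signal of 174 in the IDR list, 89.8 in replicate 1 and 86.2 in replicate 2. Its ranks of 1757, 1720 and 1860 were close to each other, and 42.8% of promoter IDR peaks were weaker. It was the member peak whose summit lay inside the gene, 77 bp downstream of the nearest 5′ end in a coding exon. The same summit was 197 bp past the end of icp-1, so the icp-1 and tpxl-1 pair had 1 peak at each 5′ end.

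The Polo gene plk-1 (chromosome III, 8101348 to 8104069, plus strand) had the strongest peak of the 8 genes (8101036 to 8101270). Its signal was 434 in the IDR list, 213 in replicate 1 and 221 in replicate 2. The ranks of 482, 485 and 491 were almost equal, and 81.6% of promoter IDR peaks were weaker. The summit lay 195 bp upstream of the 5′ end, in no other protein-coding window, and 73 bp from the noncoding RNA gene C14B9.15.

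At plk-2 (chromosome I, 2755540 to 2758204, minus strand) the promoter peak (2758573 to 2758908) was weaker and farther away. Its signal was 134 in the IDR list, 52.6 in replicate 1 and 81.1 in replicate 2, with ranks of 2334, 3542 and 2011. The summit was 537 bp upstream of the 5′ end and 336 bp from the noncoding RNA gene Y71F9B.20. With a window of 500 bp upstream and 100 bp downstream, which leaves that summit out, the peak was lost. In replicate 1 alone it also fell outside the strongest 3449 regions.

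The third Polo-like gene, plk-3 (chromosome IV, 7470860 to 7473209), is no member and had no promoter IDR peak. Its strongest pooled window region had a signal of 82.1 (rank 4311) at -240 bp. In replicate 2 a region at -236 bp had a signal of 66.2 and ranked 2543, whereas the strongest window region of replicate 1 lay at -887 bp with a signal of 25.16 and ranked 12447. With replicate 2 alone plk-3 would count as having a promoter peak, and with replicate 1 alone it would not.

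**Figure D2:**
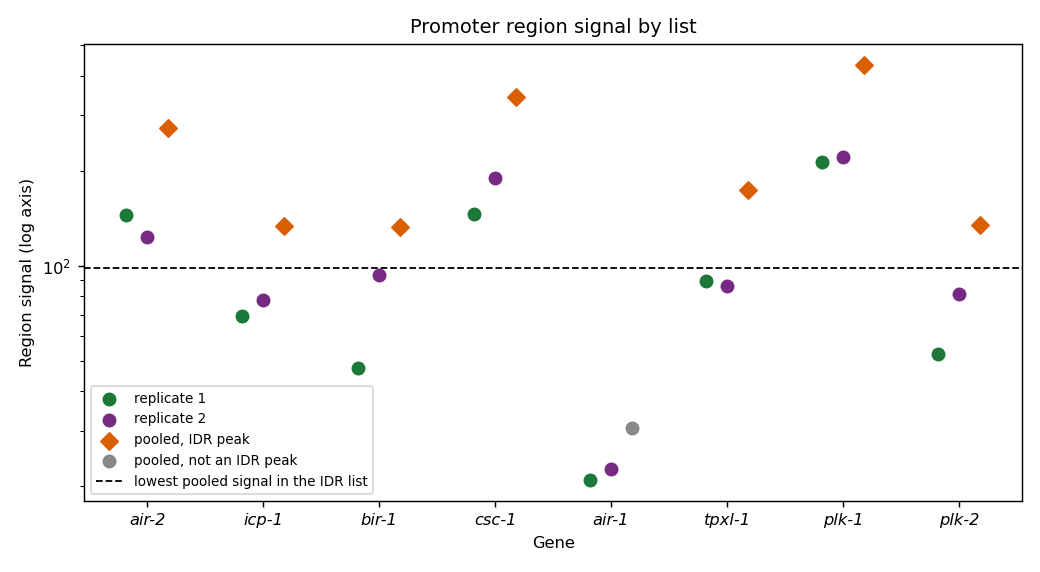
Signal of the promoter region of each gene (log axis) in replicate 1 (green), replicate 2 (purple) and the pooled data (orange where it is an IDR peak, grey where not). For air-1 each point is the strongest window region of its list, and the dashed line is the lowest signal in the IDR list, 98.2, to be read against the pooled points alone. The pooled point of air-1, at 30.6, lies under that line and those of the other genes lie above it.

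Replicate agreement was close for 5 of the 7 peaks and poorer for bir-1 and plk-2. On the log2 scale, the signal in replicate 2 over that in replicate 1 was 0.97 at bir-1 and 0.63 at plk-2, and it lay between -0.23 at air-2 and 0.38 at csc-1 for the other 5. Over the 2251 promoter IDR peaks found in both replicate lists, this ratio had a median of 0.07, with 5% of peaks below -0.71 and 5% above 0.80. The value of bir-1 was thus outside the central range and higher than in 97.7% of these peaks, while that of plk-2 was inside it. With replicate 1 alone, using its strongest 3449 regions, 5 of the 8 genes had a promoter peak, without bir-1, plk-2 and air-1, against 13.8% of all protein-coding genes. With replicate 2 alone 7 had one, against 14.3%. In the pooled data the count was 3 of 8 when the strongest 1724 IDR peaks were kept (8.9% of genes), 6 with the window of 500 bp upstream and 100 bp downstream (11.5%) and 7 with 2000 bp upstream and 500 bp downstream (17.4%). It was also 7 when any overlap of peak and window counted (14.9%), when each summit went to its nearest 5′ end (10.6%), and when a gene could also use the window of the first gene of its same-strand run (18.3%). Signals of separate lists are set side by side here and depend on each list's own scale.

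The replicate summits lay close together. At plk-2 they were 2 bp apart, at air-2 6 bp and at tpxl-1 7 bp, and the widest gap was 54 bp at icp-1. The median of 21 bp over the 7 peaks compares with 15 bp over the promoter IDR peaks found in both lists, whose quartiles were 6 and 33 bp. The median gap of the members thus lay within those quartiles, while the gaps at csc-1 (37 bp) and icp-1 lay above the upper one.

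Among all promoter IDR peaks the members were of middling strength. The median signal of the 7 peaks was 174, against 198 over the 2281 promoter IDR peaks, whose quartiles were 128 and 353. Of the 7, plk-1, csc-1 and air-2 were above that median and tpxl-1, plk-2, icp-1 and bir-1 below it. The 3 stronger peaks were also the narrow ones, at 235, 197 and 182 bp, and the other 4 had a width of 336 bp, shared by 52.0% of the IDR peaks. Over the whole IDR list, peaks narrower than 336 bp had a median signal of 293 and those of 336 bp a median of 127. The summits had a median position of -139 bp, against -178 bp over promoter IDR peaks, with quartiles at -341 and -75 bp. GC content within 50 bp of the summit was 45.5% to 55.4%, with a median of 48.5% against 45.5%. A promoter peak shared with a neighbour was found at 3 of the 7, all passenger genes, and at 35.1% of promoter IDR peaks. The members were picked as genes, and a shared peak counts for several genes, so these shares are not strictly alike.

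**Figure D3:**
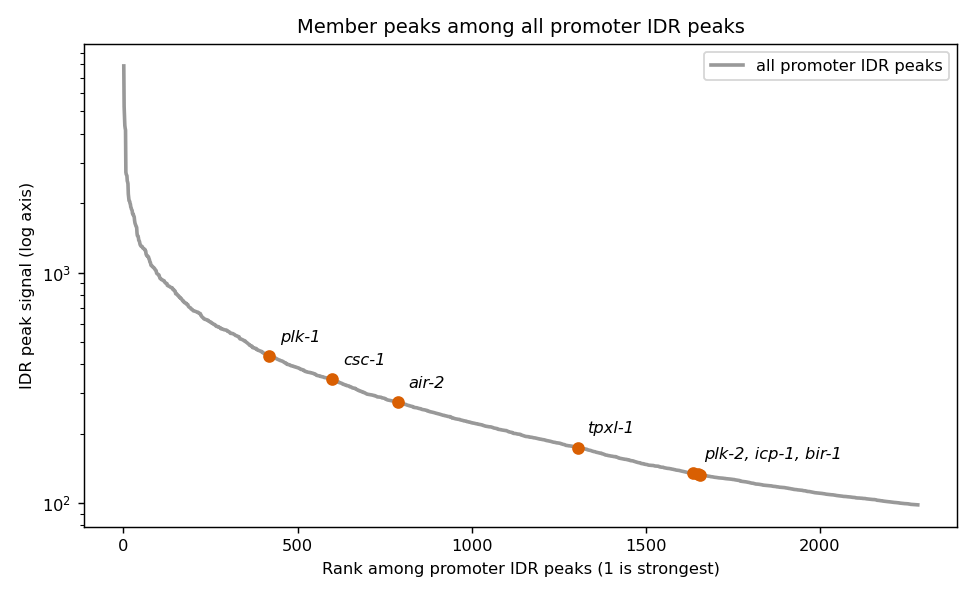
Signal (log axis) of the 2281 IDR peaks in promoter windows, ranked from the strongest (grey line), with the 7 member peaks as orange points. The peaks of plk-1, csc-1 and air-2 lie at ranks 419, 599 and 788, that of tpxl-1 at 1304, and those of plk-2, icp-1 and bir-1 together between 1635 and 1656.

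E2F words lay near the summit of every passenger gene and of no other member. Within 50 bp of the summit, air-2, bir-1 and csc-1 each had 1 E2F word and icp-1 had 2, while tpxl-1, plk-1 and plk-2 had 0. Of all promoter IDR peaks, 20.7% had an E2F word within this distance, as did 5.81% of the pooled relaxed regions outside the IDR list. The 4 of 7 peaks with a word are a count of matches to letters, which shows no bound factor, and the difference between passenger and other members was not tested. The count was also 4 with the summits of either replicate.

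The words sat on the gene side of the IDR summit, with an exception at icp-1. Along the strand of the gene, their centres were at 27 bp from the summit at air-2, at 40 bp at bir-1 and at 37 bp at csc-1, all toward the 5′ end. At icp-1 they lay to both sides, at 23 and -19 bp. With the replicate 1 summits the sides changed at csc-1 and icp-1. The csc-1 word then lay on the side away from the gene (summit 13596797), and both icp-1 words on the gene side (summit 2306922). Relative to the nearest 5′ end, the centres were at -44 bp in air-2, -70 and -112 bp in icp-1, -99 bp in bir-1 and -162 bp in csc-1. The bir-1 and csc-1 words, GCGCGAA on the gene strand in the lines printed above, read TTCGCGC on the opposite strand. Within 25 bp of the IDR summit, icp-1 alone had an E2F word, against 11.6% of promoter IDR peaks. This count depended on the summit used. With the replicate 1 summits, bir-1 (summit 11644372, word 11644375 to 11644381) and csc-1 (summit 13596797, word 13596790 to 13596796) also had one. With the replicate 2 summits, air-2 (summit 5937129, word 5937148 to 5937154) also had one.

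Within 50 bp of these summits CHR words were rarer than E2F words, but not at the other distances. Within 25 bp each kind of word was found at 1 peak, and 15.1% of promoter IDR peaks had a CHR word. Within 100 bp, CHR words were found at 5 peaks and E2F words at 4. Within 50 bp, icp-1 had the single match, centred 3.5 bp from the summit between its E2F words, and 37.7% of promoter IDR peaks had a CHR word. It was also the single peak with both kinds of word, which 11.7% of promoter IDR peaks had. Several others fell just outside this distance, and 5 of the 7 peaks had a CHR word within 100 bp, against 58.9% of promoter IDR peaks. That of plk-1 (chromosome III, 8101200 to 8101205), the capitals of its printed line, was centred at 49.5 bp and counted with the replicate 2 summit. Those of plk-2 and tpxl-1 nearest the summit were centred at 51.5 and 55.5 bp, and that of csc-1 at -69.5 bp. At air-2 and bir-1 there was no CHR word within 100 bp.

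**Figure D4:**
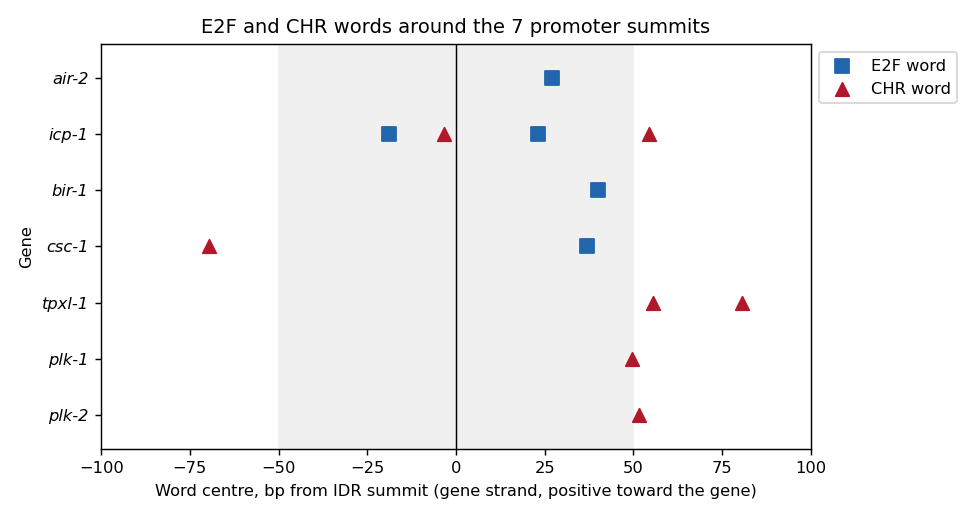
Positions of E2F words (blue squares) and CHR words (red triangles) around the IDR summit of each gene with a promoter peak, as the word centre in bp along the strand of the gene, with 50 bp to either side shaded. E2F words appear in the rows of the 4 passenger genes. CHR words lie at -3.5 and 54.5 bp in icp-1, at -69.5 bp in csc-1, and at 49.5 to 80.5 bp in tpxl-1, plk-1 and plk-2.

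The same division appeared in promoter stretches placed by the 5′ ends, which hold the same E2F words of the passenger genes. In the 300 bp from 250 bp before to 50 bp after the outermost 5′ end, all 4 passenger genes held an E2F word, with 2 at icp-1 and bir-1, and none of the other 4 did. Such a word was present in 9.19% of protein-coding promoters. A CHR word was present in icp-1, air-1, tpxl-1, plk-1 and plk-2, and in 68.9% of protein-coding promoters. The air-1 promoter, which had no IDR peak, held a CHR word, shown in its printed line, and no E2F word, as did those of tpxl-1, plk-1 and plk-2, which had one. These stretches overlap most of the summits and hold every E2F word given above for the passenger genes. The passenger count of E2F words was therefore fixed by the count at the summits and is no separate result. The second bir-1 word alone was not among those given above.

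Many regulators, partners and substrates of these kinases also had promoter peaks. Of 43 listed genes, a list chosen with earlier results of these data known, 28 (65.1%) had a promoter peak, against the 14.3% of all protein-coding genes. The list also counts the Polo-like gene plk-3, which had no promoter IDR peak, on the Polo side. The 28 genes rest on 27 peaks, of which that of mex-5 and rec-8 is common to both. By side, a peak was present at 10 of 15 genes acting with Aurora B and the passenger complex, 9 of 13 acting with Aurora A, and 9 of 15 acting with Polo kinases. Their median signal was 297, above the 174 of the members. Of the 28 genes, 17 shared the peak with a neighbour's window, mex-5 and rec-8 with each other. Of promoter IDR peaks, 35.1% were shared. A shared peak counts for several genes, so this share of peaks is not a like background for a count of genes.

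The strongest of these peaks was at cdc-48.1, whose AAA ATPase is known to remove Aurora B from chromatin in frog egg extracts, with a signal of 4348 in the IDR list, 2094 in replicate 1 and 2269 in replicate 2. Next came wee-1.3, the gene of a kinase that inhibits CDK-1, with signals of 1057, 529 and 525, and spd-1, the central spindle bundling gene, with signals of 874, 408 and 469. Each was much stronger than any member peak and similar in both replicates. The IDR signals were 598 at zen-4, the central spindle kinesin gene, 568 at sgo-1, the Shugoshin gene, and 514 at cyb-1, a B-type cyclin gene. The peak of spd-1 lay 942 bp upstream and also in the window of Y34D9A.3, and that of cyb-1 in that of orc-5.

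Of the 15 related genes without a promoter peak, cdc-25.2, him-8 and mex-6 had no pooled region at all in the window. In hasp-1, the gene of the haspin kinase whose histone mark recruits the passenger complex, the strongest window region had a signal of 89.9 and ranked 3821, just outside the IDR list. E2F words lay within 50 bp of the summit at 8 of the 28 genes (28.6%), of which 5 were on the Polo side and 1 on the passenger side. CHR words did at 10 of the 28 (35.7%). Both shares compare with 20.7% and 37.7% of promoter IDR peaks.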

How the data were processed

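Per the labels, the authors measured anti-GFP ChIP-seq in 2 biological replicates (sonicated chromatin, build ce11, which is WBcel235). Per the text files deposited with the samples, the authors made a relaxed list of 30000 regions from each replicate and another from both together, using alignments and a control file, and derived from them the optimal IDR list of 3449 peaks. The relaxed lists are named as peaks and background. Each deposited region carries a signal value (formula not given) and a summit offset. Aligner, peak caller and IDR cut-off were not given in the sources used here. The IDR peaks were exactly the strongest 3449 pooled regions. Read depth is unknown.

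Regions were read in Python 3.11.15 with numpy 2.4.6 and pandas 2.3.3, and plotted with matplotlib 3.10.9. Genes and 5′ ends came from Ensembl release 115 and sequence from the RefSeq WBcel235 genome. A replicate region matched a peak when they shared 50% or more of the shorter one. Words had to lie wholly within 50 bp of the summit. The counting steps were checked on simulated data. The members and lists were chosen with earlier results of these data known, so no list was tested. Named genes are all 8 members, genes sharing their peaks, direct neighbours, plk-3, the 6 related genes with the strongest peaks and those with no region in the window. The genes mex-5, rec-8 and hasp-1, and the genes sharing the peaks of related genes, were named after their values were seen. Alternatives were the strongest 1724 peaks, either replicate alone, other windows, other peak to gene rules, and other motif distances or summits.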

Additional observations from a re-analysis of the deposited data

How the results depend on the processing

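Among the strongest 1724 IDR peaks, 3 members kept a promoter peak (plk-1, csc-1 and air-2), and 1777 protein-coding genes had one against 2859. In the 7 other settings the members with a peak numbered 5 to 7, with 5 and 7 when either replicate was left out. A window of 500 bp upstream and 100 bp downstream gave 6, without plk-2, and each summit given to its nearest 5′ end gave 7. The gene air-1 had no peak in any of the 8 settings. The related genes with a peak numbered 22 to 32 of 43 over the 8 settings. The share of all protein-coding genes ran from 8.9% to 18.3% over the same settings. An E2F word was found at 1 member peak within 25 bp of the IDR summit and at 4 within 100 bp. A CHR word was found at 1 within 25 bp and at 5 within 100 bp. With either replicate left out, the count within 50 bp was 4 for E2F words and 1 to 2 for CHR words, since the plk-1 word entered with the replicate 2 summit. The 25 bp count of E2F words also changed with the replicate summits. Expressed as ranks, the median member peak was 1757 in the pooled list, 1720 in replicate 1 and 1676 in replicate 2. The 2 replicates in 1 group allow no test between conditions, and without read depth a missing IDR peak, as at air-1, shows only that no region passed the authors' threshold.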

Other observations

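LIN-54 peaks also lay outside the promoter windows of these genes. The 3′ side of plk-2 carried an IDR peak with its summit 672 bp past the gene end (chromosome I, 2754770 to 2754952), with a signal of 252 and a rank of 1090, stronger than the promoter peak of plk-2 at 134. Its nearest protein-coding 5′ end was that of plk-2 itself, 3336 bp away. A weaker IDR peak, with a signal of 102, had its summit 1 bp past the plk-2 end. These peaks were singled out after their values were seen.

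At air-1, the strongest region within 3000 bp of the gene lay past its 3′ end, 41 bp beyond it in the pooled list, with a signal of 91.4 and a rank of 3749, outside the IDR list. Replicate 1 had a region at the same place with a signal of 59.3, and replicate 2 one with 42.8. The IDR peak past the 3′ end of plk-1, 2598 bp beyond it, had a signal of 132. Its summit lay inside both a tRNA gene and the noncoding RNA gene C14B9.14, which its position does not tell apart. The IDR peak upstream of icp-1 at -2573 bp, with a signal of 131, lay in the window of nsun-4.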
